A study of Mus musculus with 4 samples.

Results

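Granulocytes were compared with GFP-high Gr1-low cells, the sorted populations on 2 of the 4 arrays of a study of how the transcriptional repressor Gfi1 acts in the split between monocytes and granulocytes. Both came from the bone marrow of untreated C57BL/6 mice aged 8 weeks, housed specific-pathogen-free after 10 or more backcross generations, with the genotype GFP:Gfi1 KI/WT. The shared genotype means that both populations carry a green fluorescent protein (GFP) reporter in 1 allele of Gfi1 and that neither is fully wild-type. Granulocytes were sorted as CD11b+, Gr1-high, with no GFP gate in the labels, and the other population as CD11b+, Gr1-low, GFP-high. CD11b is an integrin chain of myeloid cells, and Gr1 is a surface antigen that becomes abundant as granulocytes mature. The remaining arrays hold CD11b+, Gr1-low, GFP-low cells of the same genotype and CD11b+, Gr1-low cells of GFP:Gfi1 KI/KI mice, which are called GFP-low and Gfi1-deficient here and serve only to place levels. Each population has 1 array, the number of mice behind an array is not given in the sources used here, and no test or spread between animals can be had.

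Every gene represented on the platform by a probe set of its own entered the comparison. The deposited values, on a log2 scale, were read per gene at its brightest probe set, by the mean of all 4 arrays. Of 12393 genes in all, 8457 exceeded a floor of log2 5.18 (the 40th percentile of all values) on at least 1 of the 2 arrays and are called measured. Values under the floor were raised to it, so that a fold with 1 side at the floor is a lower bound. A difference is always granulocytes minus GFP-high Gr1-low cells, in log2 units, and "2-fold" means a difference of at least 1 in size. The SD of a difference between probe sets of the same gene, estimated from the 2 brightest of each of 3090 genes, was 0.37. That scatter is the error estimate these arrays allow, and it holds no variation between mice.

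Neutrophil granulocytes arise in bone marrow from dividing precursors that first make the proteases and peroxidase of primary granules, then the antimicrobial proteins of secondary granules, and last the gelatinases and surface receptors of the circulating cell. Division stops midway, and the cell then shrinks its nucleolus and much of its protein-making machinery while it keeps the enzymes of the respiratory burst. Gfi1 is needed for this course and is known to act on genes of the monocytic program.

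The label of the GFP-high array calls its cells monocytes, and their markers did not read that way. Elane, which encodes neutrophil elastase, read log2 8.72 in granulocytes, 13.64 in GFP-high Gr1-low, 9.31 in GFP-low Gr1-low and 11.75 in Gfi1-deficient Gr1-low cells. Csf1r, which encodes the M-CSF receptor of monocytes and macrophages, read log2 10.99 in granulocytes, 8.86 in GFP-high Gr1-low, 12.90 in GFP-low Gr1-low and 12.62 in Gfi1-deficient Gr1-low cells. The GFP-high array was thus the highest of the 4 for Elane, a gene of granulocyte precursors that was lowest in the sorted granulocytes, and the lowest for the monocyte marker Csf1r. The 19 genes of a monocyte list summed to a linear level of 10929 in GFP-high cells and 27199 in granulocytes, against 106651 in GFP-low and 104152 in Gfi1-deficient cells. The population is therefore named by its sort, GFP-high Gr1-low cells. Itgam, which encodes the CD11b chain, read log2 11.92 in granulocytes and 11.06 in GFP-high Gr1-low cells. Gfi1 itself, the gene that the reporter follows, read log2 7.31 in granulocytes, 10.31 in GFP-high Gr1-low, 3.74 in GFP-low Gr1-low and 5.18 in Gfi1-deficient Gr1-low cells. Since cells were sorted on the reporter at this locus, the high Gfi1 level of the GFP-high array follows the gate.

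Across the measured genes, 755 (8.93%) were 2-fold or more higher in granulocytes and 1383 (16.4%) were 2-fold or more lower, while 6319 lay between. At 4-fold the counts were 208 (2.46%) and 375 (4.43%), at 8-fold 67 (0.792%) and 69 (0.816%), and at 16-fold they were 17 (0.201%) and 10 (0.118%). The larger number of genes was on the GFP-high side, and the very largest differences were on the granulocyte side. The median over all measured genes was 0.03. Counts of list members past 2-fold, given below, are to be read beside the 8.93% and 16.4% of all measured genes. In bulk samples such as these, fewer cells of a type and less RNA per cell cannot be told apart, and a value set on a common scale shows a gene's share of the RNA rather than its amount per cell. Of 912 genes past 2-fold with several probe sets above the floor, 854 had them all on the same side of 0.

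**Figure D1:**
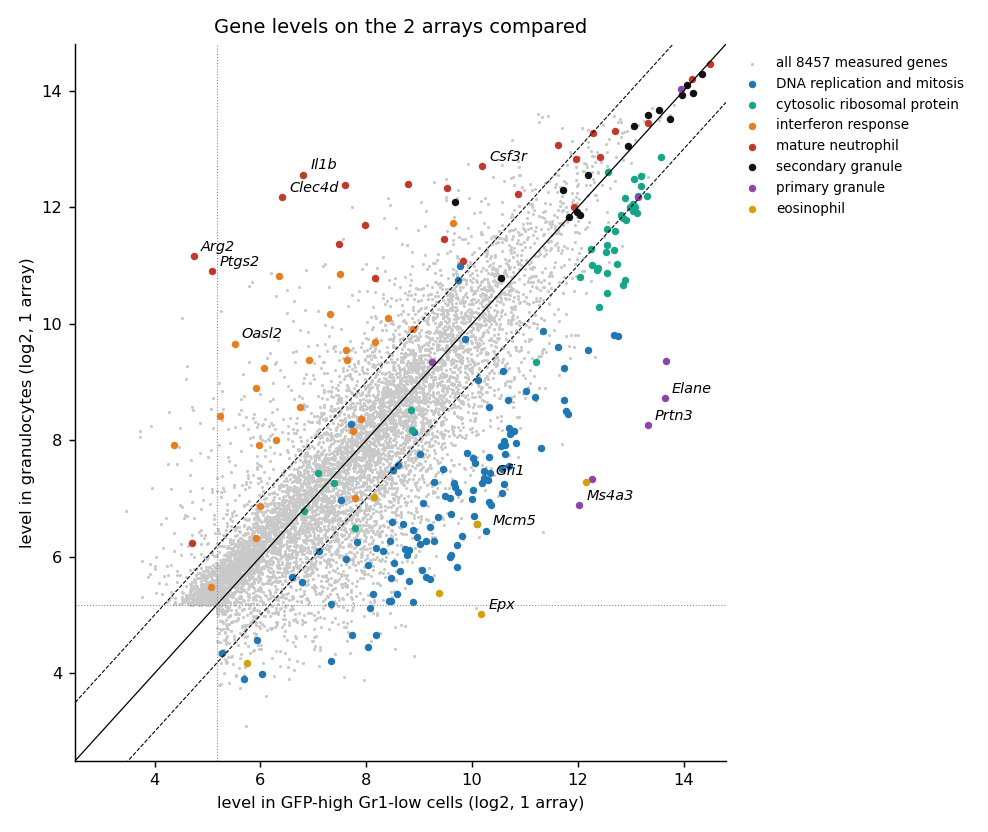
Level of each of 8457 measured genes in GFP-high Gr1-low cells (horizontal axis, log2) against granulocytes (vertical axis, log2), 1 array each, with members of 8 lists coloured, the solid line at equal levels, dashed lines at 2-fold and dotted lines at the floor of 5.18. Most replication and mitosis genes lie under the lower dashed line, mature neutrophil and interferon genes reach far above the upper, and secondary granule genes lie along the solid line.

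The widest gaps on the granulocyte side included cytokine, receptor and enzyme genes of activated neutrophils. Arg2, the mitochondrial arginase, read log2 11.16 in granulocytes and 4.74 in GFP-high Gr1-low cells and was at least 63.1-fold higher in granulocytes. Clec4d, a lectin receptor for microbial glycolipids, was 54.4-fold higher, from 6.41 to 12.17, and Il1b, the fever-inducing cytokine interleukin-1 beta, 54-fold higher, from 6.80 to 12.56. Ptgs2, the inducible cyclooxygenase of prostaglandin synthesis, was at least 52.8-fold higher. The next genes in order were Bst1 (30.9-fold), a surface enzyme that handles NAD, H2-Q10 (at least 30.4-fold), an MHC class I gene whose probe set may not separate it from close relatives, Ankrd33b (29.5-fold), the peptide transporter Slc15a3 (29-fold), the interferon-induced Ifitm1 (27.4-fold) and the surface receptor Cd300ld (25.3-fold). Rtp4, Cxcl2, Tspan13, Oasl2 and Klra2 completed the 15 highest, with differences from 4.09 to 4.47. Some of the 15 were high on other Gr1-low arrays too. Klra2, Tspan13 and Slc15a3 read log2 9.27, 10.47 and 10.64 in granulocytes. In GFP-low cells they read 9.11, 9.50 and 9.20, and in Gfi1-deficient cells 8.92, 9.67 and 9.40. Others were low there, such as Arg2 (4.22 and 5.63) and Ankrd33b (4.88 and 4.80). Rtp4 has a further probe set that was nearly level, at 0.07, so its size depends on the probe set read.

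On the GFP-high side the widest gaps were those of primary granules, eosinophil granules and DNA replication. Ms4a3, a membrane protein of granulocyte-monocyte progenitors, was 35-fold lower in granulocytes, and Prtn3, Ctsg and Elane, the serine proteases of primary granules, were 33.5-fold, 30.4-fold and 30.1-fold lower. Nkg7, a granule membrane protein, was 30.3-fold lower, and Cst7, a cystatin that inhibits cathepsins, at least 29.7-fold lower. Epx, Prg2 and Prg3, which encode proteins of the eosinophil granule, were at least 32-fold, 29.3-fold and 16.1-fold lower. Gatm, an enzyme of creatine synthesis, was 13.9-fold lower and Igfbp4, which binds insulin-like growth factors, 13.6-fold lower. Dut, Mcm5 and Ccne2, of nucleotide hygiene, helicase loading and S phase entry, followed with differences of -3.88, -3.80 and -3.73. A second probe set for Dut gave -0.90.

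Granule gene lists differed in their medians by granule, although not every member followed its list. Of 8 measured primary granule genes, 5 were 2-fold or more lower in granulocytes and 0 higher, with a median of -4.61. The 5 were the membrane protein gene Ms4a3 and the enzyme genes Prtn3, Ctsg, Elane and Mpo. The other 3 lay within 2-fold, 2 of them above 0, by at most 0.10. Mpo, the peroxidase that makes hypochlorous acid, read log2 9.36 in granulocytes, 13.66 in GFP-high Gr1-low, 8.08 in GFP-low Gr1-low and 11.42 in Gfi1-deficient Gr1-low cells. Prtn3 read log2 8.26 in granulocytes, 13.32 in GFP-high Gr1-low, 9.69 in GFP-low Gr1-low and 11.97 in Gfi1-deficient Gr1-low cells. Both followed the same order as Elane at the top, with the GFP-high array first and the Gfi1-deficient array second. Serpinb1a, an inhibitor of these proteases, differed by -0.95, short of 2-fold.

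Secondary granule genes were close to level between the arrays. Only 1 of 16 measured members was past 2-fold, and the median difference was 0.06. The exception was Ceacam10, an adhesion molecule of the carcinoembryonic antigen family, at log2 12.09 in granulocytes and 9.68 in GFP-high Gr1-low cells. Cd177, a neutrophil surface glycoprotein stored in these granules, read log2 13.58 in granulocytes, 13.33 in GFP-high Gr1-low, 11.35 in GFP-low Gr1-low and 11.02 in Gfi1-deficient Gr1-low cells. Itgb2l, an integrin-like chain of the granulocytic line, read log2 12.56 in granulocytes, 12.19 in GFP-high Gr1-low, 7.78 in GFP-low Gr1-low and 5.58 in Gfi1-deficient Gr1-low cells. Both populations compared stood well above the Gr1-low populations with low or no Gfi1. Chil1, Hp and Chil3 differed by 0.57, 0.33 and -0.23. Most members were among the brightest genes, the median level of the list being 13.22 in granulocytes and 13.01 in GFP-high cells, a range in which array signals can saturate; whether they did here was not tested.

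Tertiary granule and late secreted genes were all higher in granulocytes. Of 8 measured members, 8 were 2-fold or more higher, with a median of 2.28 and a range from 1.46 to 3.90. Mmp9, the gelatinase that gives the granule its usual name, read log2 13.59 in granulocytes, 11.25 in GFP-high Gr1-low, 8.45 in GFP-low Gr1-low and 5.94 in Gfi1-deficient Gr1-low cells. Mmp8, the neutrophil collagenase, read log2 13.55 in granulocytes, 11.32 in GFP-high Gr1-low, 11.00 in GFP-low Gr1-low and 11.71 in Gfi1-deficient Gr1-low cells. Asprv1, an aspartic protease, and Slc11a1, a metal transporter of the phagosome membrane, were 14.9-fold and 13.5-fold higher. Adam8, a sheddase of adhesion molecules, was 7.9-fold higher, and Stfa3, a stefin, 4.65-fold higher. The 3 granule lists thus gave medians of -4.61, 0.06 and 2.28, in the order in which the granules are known to form.

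Mature neutrophil genes were higher in granulocytes for 16 of 24 measured members (66.7%) and lower for 0, with a median of 1.71, or 2.61 when genes in the top 1% of values on both arrays are left out. Clec4d read log2 12.17 in granulocytes, 6.41 in GFP-high Gr1-low, 7.88 in GFP-low Gr1-low and 8.57 in Gfi1-deficient Gr1-low cells. Il1b read log2 12.56 in granulocytes, 6.80 in GFP-high Gr1-low, 7.92 in GFP-low Gr1-low and 7.63 in Gfi1-deficient Gr1-low cells. For both, granulocytes were highest by more than 3 log2 units and GFP-high cells were lowest among the 4 arrays. Ifitm1 read log2 12.38 in granulocytes, 7.61 in GFP-high Gr1-low, 8.17 in GFP-low Gr1-low and 9.28 in Gfi1-deficient Gr1-low cells, and Il1f9, an interleukin-1 family cytokine, read log2 11.36 in granulocytes, 7.48 in GFP-high Gr1-low, 5.61 in GFP-low Gr1-low and 7.04 in Gfi1-deficient Gr1-low cells.

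Receptors for chemoattractants, by which neutrophils leave the marrow and find inflamed tissue, were 2-fold or more higher in granulocytes for 7 of 16 measured members, and none was that much lower. Cxcr2, the receptor for neutrophil-recruiting chemokines, read log2 12.40 in granulocytes, 8.79 in GFP-high Gr1-low, 6.68 in GFP-low Gr1-low and 6.04 in Gfi1-deficient Gr1-low cells. Cxcr4, which holds cells in the marrow, read log2 10.98 in granulocytes, 10.72 in GFP-high Gr1-low, 10.93 in GFP-low Gr1-low and 10.85 in Gfi1-deficient Gr1-low cells and differed by 0.26. The release receptor was therefore 12.1-fold apart and the retention receptor 1.2-fold. Hcar2, a receptor for hydroxy acids, was 10.4-fold higher in granulocytes, Ccr1 6.15-fold, the complement receptor C5ar1 4.07-fold, and Ccrl2 3.82-fold.

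Secreted signals were 2-fold or more higher in granulocytes for 11 of 21 measured chemokine and cytokine genes and lower for 0, with a median of 1.15, or 0.49 with the floor at the 20th percentile, which brings more dim genes into the list. Cxcl2, a ligand of Cxcr2, read log2 12.00 in granulocytes, 7.72 in GFP-high Gr1-low, 8.47 in GFP-low Gr1-low and 9.17 in Gfi1-deficient Gr1-low cells. Il1rn, which encodes the antagonist of interleukin-1, was 13.9-fold higher beside Il1b itself, and Il1r2, its decoy receptor, 3.92-fold higher. Tnfsf14, a tumour necrosis factor family ligand, was 4.81-fold higher and Ccl6 6.99-fold higher. Interleukin-1 ligand, antagonist and decoy receptor thus stood on the same side.

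Pattern recognition and inflammasome genes were 2-fold or more higher for 13 of 23 and lower for 0. Tlr2, the receptor for bacterial lipopeptides, read log2 10.62 in granulocytes, 7.30 in GFP-high Gr1-low, 10.38 in GFP-low Gr1-low and 10.36 in Gfi1-deficient Gr1-low cells. Nlrp3, the sensor that assembles an inflammasome, read log2 10.19 in granulocytes, 6.50 in GFP-high Gr1-low, 9.61 in GFP-low Gr1-low and 9.34 in Gfi1-deficient Gr1-low cells. For Tlr2, Nlrp3 and Clec7a, the beta-glucan receptor at 12.04 in granulocytes and 8.45 in GFP-high cells, the GFP-low and Gfi1-deficient arrays read within 1 log2 unit of granulocytes, and the GFP-high array stood alone below. Clec4e, the partner of Clec4d in the cell wall receptor complex, was 13.1-fold higher, and Ly96, the co-receptor of Tlr4, at least 6.06-fold higher. The summed monocyte markers given above, 27199 against 10929, stood on the same side as these receptors, and their part in the difference was not tested.

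Fc, complement and paired receptors were 2-fold or more higher for 10 of 21 and lower for 1. Cd300ld read log2 10.86 in granulocytes, 6.20 in GFP-high Gr1-low, 8.11 in GFP-low Gr1-low and 8.45 in Gfi1-deficient Gr1-low cells. Cd55, which protects the cell surface from complement, was at least 8.22-fold higher, Trem1, an amplifier of inflammatory signals, 6.12-fold, Fcgr4, an activating receptor for immunoglobulin G, 4.47-fold, Cd300a 4.02-fold and Cd300lf 3.5-fold. The member on the other side was Siglecf, a sialic acid receptor best known from eosinophils, at log2 7.02 in granulocytes and 8.14 in GFP-high Gr1-low cells.

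Not all effector systems differed to this extent. Subunits of the NADPH oxidase and its regulators, the machinery of the respiratory burst, had a median difference of 0.09, with 1 of 9 2-fold or more higher and 1 lower. Each share was 11.1%, beside 8.93% higher and 16.4% lower among all measured genes. Cybb, the catalytic subunit, read log2 11.87 in granulocytes, 12.03 in GFP-high Gr1-low, 11.62 in GFP-low Gr1-low and 11.35 in Gfi1-deficient Gr1-low cells, and Ncf1, the organising subunit, log2 12.60 in granulocytes, 12.27 in GFP-high Gr1-low, 10.41 in GFP-low Gr1-low and 10.38 in Gfi1-deficient Gr1-low cells. Both Cybb and Ncf1 were therefore at much the same level on the arrays compared. Hvcn1, the proton channel that balances charge during the burst, was 2.29-fold lower in granulocytes, and Pik3cg, a phosphoinositide kinase upstream of the oxidase, 2.22-fold higher in granulocytes.

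Adhesion and migration genes had 3 of 27 members 2-fold or more higher and 2 lower, shares of 11.1% and 7.41% against 8.93% and 16.4% of all measured genes. Selplg, the ligand of selectins by which neutrophils roll, was 5.42-fold higher in granulocytes, and Itgal, a chain of the integrin LFA-1, 2.91-fold. Itga6 and Itgb1, chains of laminin-binding integrins, were 2.75-fold and 2.02-fold lower, and Actn1, which crosslinks actin, was 2.05-fold higher. Lipid mediator genes split, with 3 of 14 higher and 3 lower, 21.4% each. Ptgs2 read log2 10.90 in granulocytes, 5.09 in GFP-high Gr1-low, 7.78 in GFP-low Gr1-low and 7.22 in Gfi1-deficient Gr1-low cells, and Pla2g7, which degrades platelet-activating factor, was 16.7-fold higher in granulocytes. Alox15, a lipoxygenase abundant in eosinophils, was 11.6-fold lower. Lta4h, which makes leukotriene B4, was 2.23-fold lower, with probe sets ranging from -1.30 to 0.27.

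Interferon response genes were 2-fold or more higher in granulocytes for 18 of 24 measured members (75%), and 0 were that much lower. These genes encode antiviral enzymes and binding proteins induced through interferon receptors, and Gfi1-deficient cells were low in them too. Oasl2, of the oligoadenylate synthetase family, read log2 9.66 in granulocytes, 5.51 in GFP-high Gr1-low, 9.45 in GFP-low Gr1-low and 4.91 in Gfi1-deficient Gr1-low cells. Usp18, which removes ISG15 and dampens the interferon receptor, read log2 8.41 in granulocytes, 5.23 in GFP-high Gr1-low, 9.01 in GFP-low Gr1-low and 6.08 in Gfi1-deficient Gr1-low cells. The GFP-high and Gfi1-deficient arrays were the low ones and the granulocyte and GFP-low arrays the high ones, and the median levels of the list gave the same picture, at 9.07, 6.83, 8.95 and 7.07 in granulocytes, GFP-high, GFP-low and Gfi1-deficient cells. Rsad2, an antiviral enzyme, was 10.2-fold higher in granulocytes, Oasl1 9-fold and Ifit3 7.95-fold. Oas and Ifit genes have close relatives that probe sets may not fully separate.

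Promoter sequence was examined because so many of these members differed in 1 direction. RefSeq promoter windows of GRCm38.p6, 300 bases long with 250 before and 50 after a gene's start, were held for 6910 of the 8457 measured genes. The interferon-stimulated response element (ISRE), searched on both strands as a pair of GAAA blocks with any 2 bases between, was found for 9 of 17 interferon response genes with a window (52.9%) and for 3.94% of all measured genes. Rtp4 and Oasl2, which are wider apart than Ifit3 and Rsad2, have no stretch shown here. These are the stretches around the matches in Ifit3 and Rsad2, genes that are also among the widest apart of the list. The motif is in capitals, 5′ to 3′ along the gene's strand.
Ifit3 ISRE, chr19:34583363-34583392 (+ strand): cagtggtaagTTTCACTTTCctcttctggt
Ifit3 ISRE, chr19:34583397-34583426 (+ strand): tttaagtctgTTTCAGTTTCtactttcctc
Rsad2 ISRE, chr12:26456553-26456582 (- strand): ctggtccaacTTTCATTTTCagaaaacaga
Ifit3 has a pair of matches within its window and Rsad2 a single one, all before the start of the gene, and in each the motif reads on the strand opposite to the gene. A match describes the letters of the window and is no evidence of binding in these cells.

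MHC class I presentation genes, which include many interferon targets, had a median of 0.28, with 2 of 13 2-fold or more higher and 1 lower. The shares were 15.4% and 7.69%, beside 8.93% and 16.4% of all measured genes. H2-K1, a classical class I heavy chain read by a probe set that may cross-hybridise, was 2.37-fold higher. Erap1, which trims peptides for class I, was 2.3-fold lower.

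**Figure D2:**
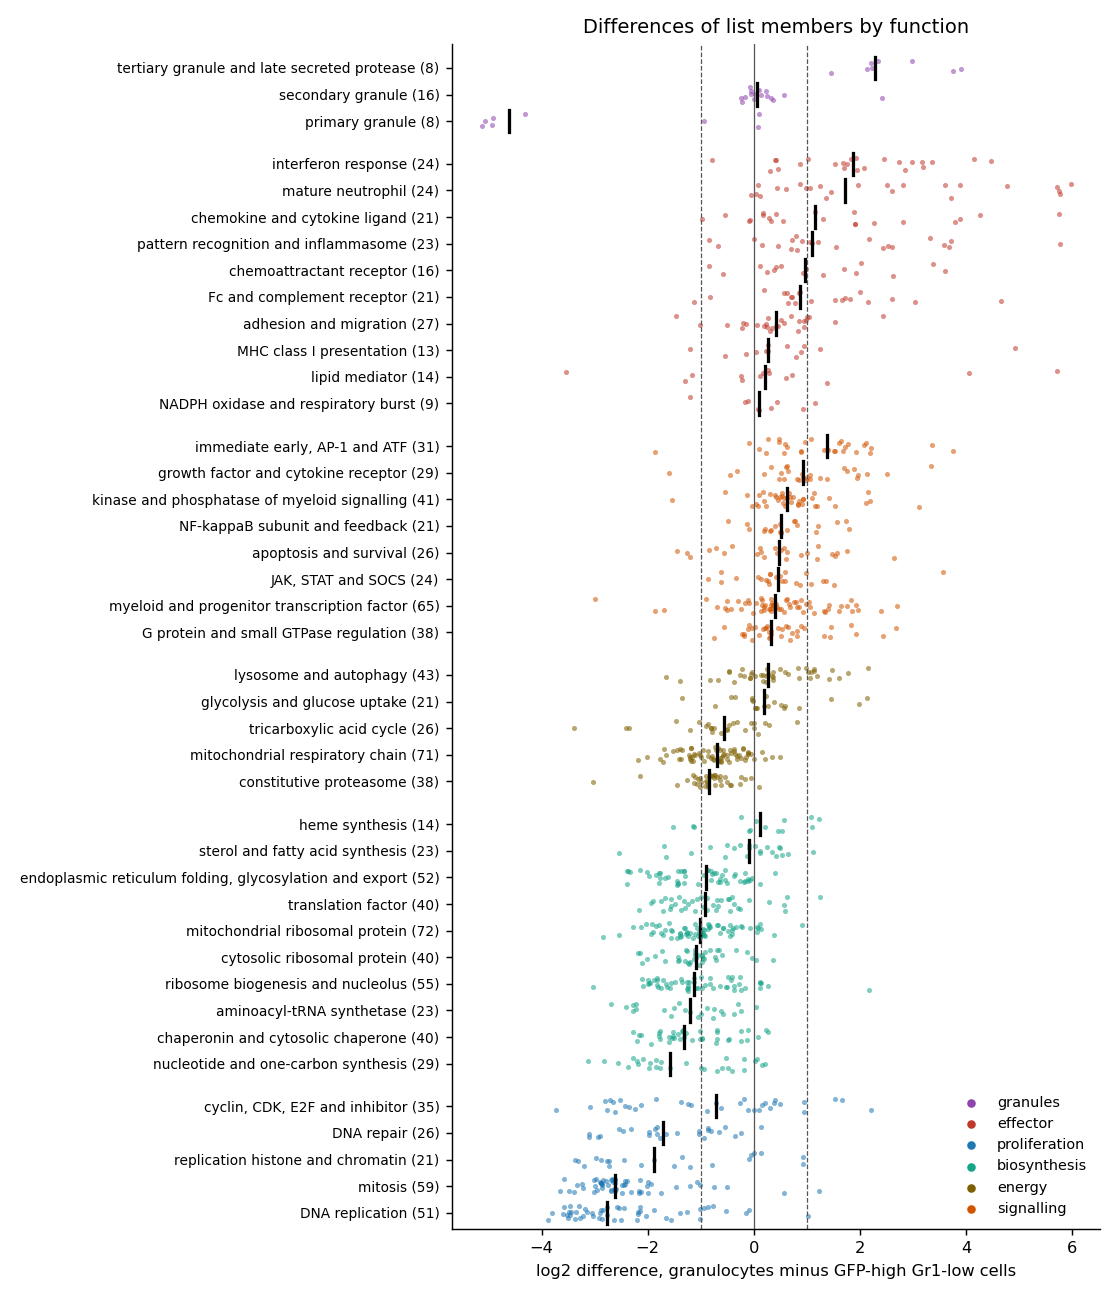
Log2 difference, granulocytes minus GFP-high Gr1-low cells (horizontal axis), of each measured member of 41 gene lists grouped by function and coloured by theme, with the number of measured members in brackets, a black bar at the list median, and dashed lines at 2-fold. Proliferation and most biosynthesis lists lie to the left, with medians down to -2.77 for DNA replication, and effector and signalling lists to the right, with medians up to 1.88 for the interferon response among them.

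Signalling genes leaned to the granulocyte side, with list medians from 0.33 to 1.37 over 8 lists. Median levels in granulocytes, GFP-high, GFP-low and Gfi1-deficient cells were 9.03, 8.11, 8.98 and 8.78 for growth factor and cytokine receptors. For kinases and phosphatases they were 9.86, 9.15, 9.78 and 9.65, and GFP-high cells were the low array on both lists. On the G protein list (10.42, 9.94, 9.68 and 9.52) the GFP-low and Gfi1-deficient arrays were the lowest. Receptors for growth factors and cytokines were 2-fold or more higher for 13 of 29 and lower for 1. Csf3r, the receptor for granulocyte colony-stimulating factor, read log2 12.71 in granulocytes, 10.19 in GFP-high Gr1-low, 10.36 in GFP-low Gr1-low and 10.19 in Gfi1-deficient Gr1-low cells. Granulocytes were high for it and the 3 Gr1-low arrays were close to each other. Il13ra1 was at least 10.1-fold higher, Ifngr2, a chain of the interferon gamma receptor, 3.88-fold, and Il17ra 3.7-fold. In GFP-low and Gfi1-deficient cells Il13ra1 read log2 9.10 and 9.40, above its 8.51 in granulocytes. Csf1r was 4.39-fold higher in granulocytes. Kit, the stem cell factor receptor of progenitors, was the member on the other side, at log2 6.51 in granulocytes, 8.11 in GFP-high Gr1-low, 3.96 in GFP-low Gr1-low and 4.42 in Gfi1-deficient Gr1-low cells.

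Downstream of these receptors, JAK, STAT and SOCS genes were 2-fold or more higher for 5 of 24 and lower for 0. The shares were 20.8% and 0%, beside 8.93% and 16.4% of all measured genes. Socs3, a feedback inhibitor of cytokine receptors including that for granulocyte colony-stimulating factor, read log2 9.35 in granulocytes, 5.79 in GFP-high Gr1-low, 7.58 in GFP-low Gr1-low and 8.68 in Gfi1-deficient Gr1-low cells and was 11.8-fold higher than in GFP-high cells. The kinase gene Jak1 was 2.12-fold higher, Pim1, a survival kinase induced by STATs, 2.87-fold, Stat5b 2.48-fold and the phosphatase Ptpn1 2.56-fold. NF-kappaB subunits and feedback genes were 2-fold or more higher for 5 of 21 (23.8%, beside the same 8.93%) and lower for 0. Among them Bcl3, a nuclear cofactor, was 3.47-fold higher, Nfkbiz, an inducible cofactor, 3.35-fold, Tnfaip2 2.98-fold, the survival factor Birc3 2.3-fold and Relb, a subunit, 2.27-fold.

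Immediate early genes, which are transcribed within minutes of a stimulus and also when tissue is handled, were 2-fold or more higher in granulocytes for 18 of 31 and lower for 1. Junb, a subunit of the AP-1 factor, read log2 12.16 in granulocytes, 8.41 in GFP-high Gr1-low, 10.91 in GFP-low Gr1-low and 10.56 in Gfi1-deficient Gr1-low cells. Dusp1, a phosphatase that shuts off MAP kinases, was 4.55-fold higher, Dusp6 4.35-fold, and Btg2, an antiproliferative factor, 4.62-fold. Zfp36l1, an RNA-binding factor that speeds decay of cytokine messages, was at least 10.3-fold higher, with probe sets from 1.37 to 3.37. Zfp36, its best-known relative, was 3.79-fold higher. The member on the other side was Myc, the growth-promoting transcription factor, at log2 4.91 in granulocytes, 7.04 in GFP-high Gr1-low, 5.71 in GFP-low Gr1-low and 6.11 in Gfi1-deficient Gr1-low cells and so at least 3.63-fold lower in granulocytes. The list's median levels were 9.95, 8.41, 10.41 and 10.24 in granulocytes, GFP-high, GFP-low and Gfi1-deficient cells, with GFP-high cells the low array. The part of cell handling in these values was not tested.

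The NF-kappaB letters, searched on both strands as GGG and TTTCC with any 2 bases between, were found for 6 of 17 NF-kappaB feedback genes (35.3%) and 4 of 16 chemokine and cytokine genes (25%), against 2.04% of all measured genes. The AP-1 letters TGANTCA were found for 6 of those chemokine and cytokine genes (37.5%) and 6.58% of all, and the C/EBP letters TTGCNNAA for 12.5% and 10.1%. The stretches of Cxcl2 and Ptgs2 are shown as the chemokine and the lipid enzyme with the widest gaps.
Cxcl2 NF-kappaB, chr5:90903792-90903821 (+ strand): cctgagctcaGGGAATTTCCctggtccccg
Cxcl2 NF-kappaB, chr5:90903811-90903840 (+ strand): cctggtccccGGGCTTTTCCagacatcgtg
Ptgs2 C/EBP, chr1:150099951-150099980 (+ strand): cgctgcggttcTTGCGCAActcactgaagc
The Cxcl2 window holds 2 NF-kappaB matches and the Ptgs2 window a palindromic C/EBP match, all before the start of the gene. Cebpb, a C/EBP factor of stimulated and maturing myeloid cells, read log2 12.55 in granulocytes, 10.90 in GFP-high Gr1-low, 12.33 in GFP-low Gr1-low and 12.10 in Gfi1-deficient Gr1-low cells. Cebpd differed by 0.51 and Cebpa, which acts in earlier precursors, by -0.30.

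Kinases and phosphatases of myeloid signalling were 2-fold or more higher for 10 of 41 and lower for 1. Those shares were 24.4% and 2.44%, beside 8.93% and 16.4% of all measured genes. Camk1d, a calcium-dependent kinase, was at least 8.68-fold higher, Stk17b 4.46-fold, and Fgr, a Src family kinase below integrins and Fc receptors, 2.88-fold. Camk1d read log2 8.30 in granulocytes, under its 9.63 in GFP-low and 9.03 in Gfi1-deficient cells. Map2k6, a kinase of the p38 path, was at least 2.92-fold lower. G protein and small GTPase genes were 2-fold or more higher for 7 of 38 (18.4%) and lower for 0, with a median of 0.33. Pde4b, which degrades cyclic AMP, was 6.41-fold higher, Gng2 5.44-fold, and Rasgrp4, a Ras exchange factor, 3.8-fold.

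Transcription factors of myeloid cells and progenitors leaned to the granulocyte side, with 16 of 65 2-fold or more higher and 3 lower. The shares were 24.6% and 4.62%, beside 8.93% and 16.4% of all measured genes, and the median was 0.41. Those lower were Gfi1, Myc and Myb, the last a factor of cycling progenitors at log2 9.19 in granulocytes, 10.88 in GFP-high Gr1-low, 7.63 in GFP-low Gr1-low and 7.86 in Gfi1-deficient Gr1-low cells. Mxd1, which opposes Myc by competing for its partner Max, read log2 10.56 in granulocytes, 7.85 in GFP-high Gr1-low, 5.61 in GFP-low Gr1-low and 5.86 in Gfi1-deficient Gr1-low cells. Myc and Mxd1 thus lay on opposite sides, Myc at least 3.63-fold lower and Mxd1 6.51-fold higher. Rara, a retinoic acid receptor, was 5.29-fold higher. Irf5 was 3.9-fold higher by its brightest probe set and nearly level, at 0.12, by another.

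Apoptosis and survival genes had 8 of 26 members 2-fold or more higher and 3 lower. The shares were 30.8% and 11.5%, beside 8.93% and 16.4% of all measured genes, so the lower share was under that of all. Fas, a death receptor, was 6.28-fold higher in granulocytes, and so were the pro-death Pmaip1 (at least 3.4-fold), Bbc3 (2.78-fold) and Bnip3 (2.97-fold) and the protective Mcl1 (2.88-fold). Cytochrome c, encoded by Cycs, was 2.74-fold lower and the adaptor Fadd 2.4-fold lower.

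Most proliferation genes were lower in granulocytes. Of 51 measured DNA replication genes, 44 (86.3%) were 2-fold or more lower, 37 of them 4-fold or more, and 1 was higher, against 16.4% and 8.93% of all measured genes. Mcm5, a subunit of the helicase that opens replication origins, read log2 6.45 in granulocytes, 10.26 in GFP-high Gr1-low, 8.79 in GFP-low Gr1-low and 9.22 in Gfi1-deficient Gr1-low cells. GFP-high cells were highest and granulocytes lowest, and the other Gr1-low arrays lay between, as they did for the list as a whole with median levels of 9.12, 8.25, 7.85 and 6.56 in GFP-high, Gfi1-deficient, GFP-low cells and granulocytes. Tk1, which salvages thymidine, was 12-fold lower, Rfc4, of the clamp loader, 12-fold, Uhrf1, which copies DNA methylation, 11.4-fold, and Prim1, the primase, 11.3-fold. The member on the other side was Dck, a deoxynucleoside kinase, 2.04-fold higher in granulocytes.

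Mitosis genes were 2-fold or more lower for 55 of 59 measured members (93.2%), with a median of -2.62. Bub1, a spindle checkpoint kinase, read log2 6.02 in granulocytes, 9.60 in GFP-high Gr1-low, 8.36 in GFP-low Gr1-low and 8.70 in Gfi1-deficient Gr1-low cells, although another probe set for it gave -0.24. Ncapg, of the condensin complex, was 12.7-fold lower, Cdca5, which stabilises sister chromatid cohesion, 10.5-fold, Plk4, which starts centriole copying, 10.1-fold, and Trip13, a checkpoint ATPase, 9.38-fold. Mki67, the usual proliferation marker, read log2 9.56 in granulocytes, 12.20 in GFP-high Gr1-low, 11.22 in GFP-low Gr1-low and 10.99 in Gfi1-deficient Gr1-low cells. Pttg1, the securin that guards sister chromatids, went the other way and was 2.33-fold higher in granulocytes. Mki67 stayed above the floor in granulocytes.

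Cyclins, their kinases and the regulators of both were lower or near level, with few exceptions. Of 35 measured members, 16 were 2-fold or more lower, 3 higher and 16 between. The lower share was 45.7%, beside 16.4% of all measured genes. The higher share was 8.57%, near the 8.93% of all. Ccne2, the cyclin of S phase entry, read log2 4.30 in granulocytes and 8.90 in GFP-high Gr1-low cells and was at least 13.2-fold lower in granulocytes. Skp2, which marks the cycle inhibitor p27 for destruction, was at least 8.5-fold lower, Cdc25a, the phosphatase that frees cyclin-dependent kinases, 6.51-fold, Foxm1, the factor of mitotic genes, 6.8-fold, and Rbl1, a pocket protein that restrains E2F factors, 7.01-fold. The members that were higher were the antiproliferative genes Btg1 (3.16-fold), Btg2 (4.62-fold) and Tob1 (2.9-fold).

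DNA repair genes were 2-fold or more lower for 17 of 26 and higher for 0. Chek1, the kinase that halts the cycle at stalled forks, was 8.62-fold lower, Msh6, of mismatch repair, 8.66-fold, and Rad54l, of homologous recombination, 7.68-fold. Replication histone and chromatin genes were 2-fold or more lower for 14 of 21. Hells, a remodeller of newly copied DNA, was at least 10.3-fold lower in granulocytes, Asf1b, a histone chaperone, 9.21-fold lower and Ezh2, the Polycomb methyltransferase, 7.36-fold lower.

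The promoters of part of the replication and mitosis genes held letters known from cell cycle control. The E2F letters TTTCGCGC or TTTGGCGC, which overlap each other where a site reads on both strands, were found for 13 of 43 DNA replication genes with a window (30.2%), for 6.12% of mitosis genes and for 2.04% of all measured genes. The cell cycle homology region (CHR), searched as TTTGAA, was found for 31 of 49 mitosis genes (63.3%), 16.3% of DNA replication genes and 14.1% of all. Replication and mitosis genes, which were lower by nearly the same median, thus differed in which of these letters their windows held. The CCAAT box, searched as CCAAT, was found for 60.5% and 67.3% of these lists and 42.6% of all. Among the remaining proliferation lists, E2F letters were found for 11.1% of cyclin and regulator, 5.26% of replication histone and chromatin and 4.35% of DNA repair genes. For CHR letters the same shares were 22.2%, 47.4% and 0%. Both strands were searched in each case. The stretches shown belong to members among the 6 widest apart of the replication list or of the mitosis list.
Mcm5 E2F, chr8:75109347-75109376 (+ strand): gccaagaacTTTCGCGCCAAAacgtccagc
Uhrf1 E2F, chr17:56304117-56304146 (+ strand): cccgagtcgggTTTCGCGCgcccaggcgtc
Cdca5 CHR, chr19:6085068-6085097 (+ strand): caaggcgggcaaTTTGAAcgtttgaagcag
Ncapg CHR, chr5:45669883-45669912 (+ strand): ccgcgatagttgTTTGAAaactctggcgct
The Mcm5 capitals join a pair of overlapping E2F matches, 1 on each strand. The Cdca5 stretch holds a further CHR match, left in lower case, and every match shown lies before the start of its gene. Over all genes, E2F letters were found for 4.08% of those 2-fold or more lower in granulocytes and 0.969% of those 2-fold or more higher, CHR letters for 18.2% and 12.9%, AP-1 letters for 4.95% and 10.5%, and C/EBP letters for 8.86% and 14.2%.

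**Figure D3:**
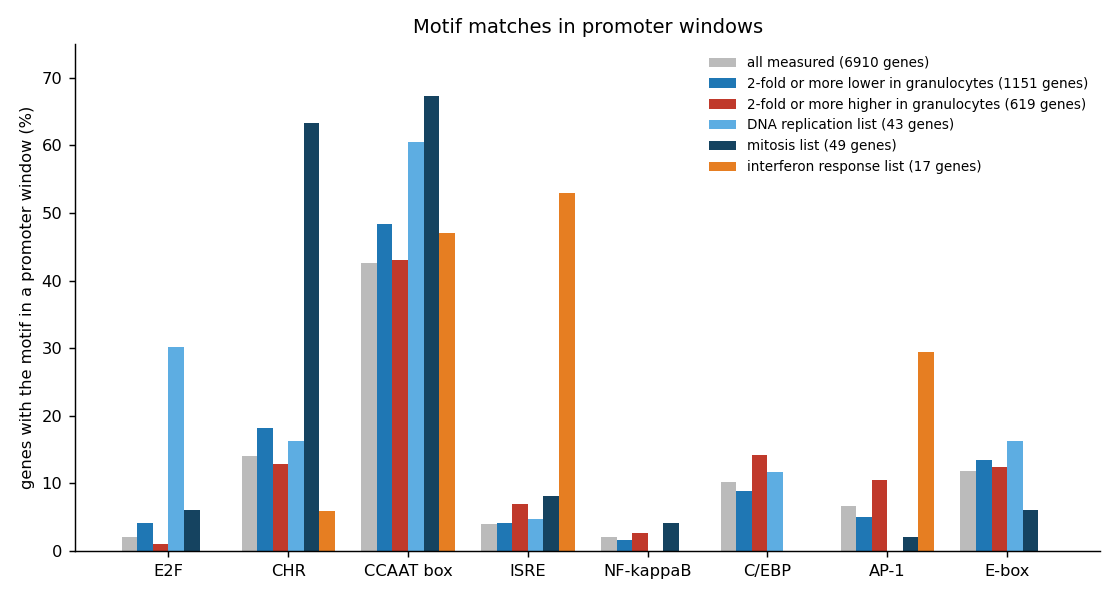
Share of genes with a motif in at least 1 promoter window (vertical axis, percent, from 0) for 8 motifs, for all measured genes, the genes 2-fold or more lower or higher in granulocytes, and 3 gene lists, with the number of genes that have a window in brackets. E2F letters stand out for DNA replication (30.2%), CHR letters for mitosis (63.3%) and ISRE letters for the interferon response (52.9%).

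Biosynthesis genes were lower in granulocytes across most of the machinery, by a smaller step than the cell cycle genes. Of 40 measured cytosolic ribosomal protein genes, 23 were 2-fold or more lower and 0 higher, with a median of -1.10 against 0.03 for all measured genes. Rpsa, of the small subunit, read log2 10.75 in granulocytes, 12.90 in GFP-high Gr1-low, 13.05 in GFP-low Gr1-low and 13.24 in Gfi1-deficient Gr1-low cells. Rpl10a, of the large subunit, read log2 10.53 in granulocytes, 12.56 in GFP-high Gr1-low, 12.75 in GFP-low Gr1-low and 12.94 in Gfi1-deficient Gr1-low cells. For both, the 3 Gr1-low arrays lay within 0.50 of each other and granulocytes about 2 log2 units below. Rps19 was 4.29-fold lower and Rpl22 3.64-fold lower. Rps18, 4.53-fold lower by its brightest probe set, had another on the other side of 0, and ribosomal protein genes have many processed copies that probe sets may also detect. Mitochondrial ribosomal protein genes were 2-fold or more lower for 37 of 72 and higher for 0, with a median of -1.01, led by Mrpl42 (7.16-fold) and Mrpl35 (5.81-fold).

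The factors that build ribosomes followed. Ribosome biogenesis and nucleolar genes were 2-fold or more lower for 31 of 55 and higher for 1. Npm1, the abundant nucleolar chaperone nucleophosmin, read log2 8.11 in granulocytes, 10.10 in GFP-high Gr1-low, 10.74 in GFP-low Gr1-low and 10.85 in Gfi1-deficient Gr1-low cells, and Fbl, the methyltransferase fibrillarin, log2 7.28 in granulocytes, 9.39 in GFP-high Gr1-low, 10.33 in GFP-low Gr1-low and 10.35 in Gfi1-deficient Gr1-low cells. Both were lowest in granulocytes, and the other Gr1-low arrays were above the GFP-high array. Rrs1, of large subunit assembly, was at least 8.13-fold lower in granulocytes. Polr1a, the largest subunit of RNA polymerase I, went the other way and was 4.5-fold higher in granulocytes, with all its probe sets higher.

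Messages for the translation machinery were lower too. Aminoacyl-tRNA synthetase genes, which charge transfer RNAs with amino acids, were 2-fold or more lower for 14 of 23 and higher for 0. Farsb and Farsa, the subunits of the phenylalanine enzyme, were 6.44-fold and 4.84-fold lower, Iars, the isoleucine enzyme, 5.31-fold, and Eprs, the glutamate and proline enzyme, 4.63-fold. Translation factors were 2-fold or more lower for 18 of 40 and higher for 1. The initiation factor genes Eif3b, Eif3i and Eif4e, the last encoding the cap-binding protein, were 4.5-fold, 3.8-fold and 3.28-fold lower. The member that was higher was Eif4ebp1, the repressor that holds Eif4e, at log2 10.16 in granulocytes and 8.91 in GFP-high Gr1-low cells. The cap-binding protein and its repressor thus lay on opposite sides.

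Genes of protein folding and export were 2-fold or more lower for 25 of 52 members of the endoplasmic reticulum list and 25 of 40 of the chaperone list, and no member of either was that much higher. Ddost and Rpn2, subunits of the enzyme that attaches N-glycans, were 5.23-fold and 5.22-fold lower, the stress-induced factor Manf 5.05-fold, and Lman1, a cargo receptor for secreted glycoproteins, 4.02-fold. In the cytosol, the chaperonin genes Tcp1 and Cct6a were 4.37-fold and 3.83-fold lower, and Timm50, of mitochondrial protein import, 4.84-fold. CCAAT letters were found in the windows of 30 of 42 endoplasmic reticulum genes (71.4%), against 42.6% of all. These letters did not go with the shift from list to list. They were found for 28.6% of cytosolic ribosomal protein genes, with a median difference of -1.10. Of sterol and fatty acid synthesis genes, with a median of -0.09, 100% had them.

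Building blocks for nucleic acids went with these. Nucleotide and one-carbon synthesis genes were 2-fold or more lower for 17 of 29 and higher for 0, with a median of -1.58, or -0.92 with the floor at the 60th percentile. Dtymk, which makes thymidine diphosphate, was 8.73-fold lower, Paics, of purine synthesis, 7.1-fold, Psat1, of serine synthesis, at least 5.86-fold lower in granulocytes, and Mthfd2, of the mitochondrial folate cycle, 4.84-fold lower. Sterol and fatty acid synthesis genes did not share this shift, with a median of -0.09. Of 23 members, 4 were lower (17.4%, beside 16.4% of all measured genes) and 1 higher (4.35%, beside 8.93%). Heme synthesis genes had a median of 0.13, with 3 of 14 lower, among them Alas1, the entry enzyme outside red cells (2.2-fold), and 3 higher. These heme shares were 21.4% each, beside 16.4% and 8.93% of all measured genes.

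Mitochondrial energy genes leaned lower in granulocytes, and glycolysis genes were close to level. Respiratory chain genes were 2-fold or more lower for 24 of 71 and higher for 0, with a median of -0.69, and Ndufa5, of complex I, and Atp5g1, of the ATP synthase, were 4.55-fold and 4.05-fold lower. Tricarboxylic acid cycle genes were lower for 6 of 26 (23.1%, beside 16.4% of all), led by Idh3a (10.5-fold, with another probe set at -0.89), Fh1 (5.33-fold) and Idh2 (5.13-fold). Glycolysis and glucose uptake genes had a median of 0.20, with 3 of 21 higher (14.3%, beside 8.93% of all) and 1 lower. Those higher were transporters, Slc2a1 and Slc2a3 for glucose (4.36-fold and 2.74-fold) and Slc16a3 for lactate (3.93-fold). Slc2a3 read log2 13.07 in granulocytes, 11.62 in GFP-high Gr1-low, 8.41 in GFP-low Gr1-low and 7.35 in Gfi1-deficient Gr1-low cells. The one lower was the enzyme Tpi1 (2.56-fold).

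Constitutive proteasome genes were 2-fold or more lower for 11 of 38 (28.9%, beside 16.4% of all measured genes) and higher for 0. The assembly chaperones Psmg2 and Psmg1 were the widest apart, Psmg2 at least 8.17-fold lower in granulocytes and Psmg1 4.44-fold lower. Lysosome and autophagy genes were higher for 11 of 43 (25.6%, beside 8.93% of all measured genes) and lower for 2 (4.65%, beside 16.4%). Their summed levels were 62378 in granulocytes, 45534 in GFP-high, 81352 in GFP-low and 82298 in Gfi1-deficient cells. Ulk1, the kinase that starts autophagy, was 4.45-fold higher, Map1lc3b, a protein of the autophagosome membrane, 3.41-fold, Atg7, an enzyme that conjugates it, 2.77-fold, and the proteases Ctsl and Ctss 3.05-fold and 2.68-fold. Ctss, also on the monocyte list, read log2 10.40 in granulocytes, 8.98 in GFP-high, 13.13 in GFP-low and 13.01 in Gfi1-deficient cells. Gusb and Glb1, lysosomal glycosidases, were 3.16-fold and 2.62-fold lower. E-box letters CACGTG were found for 13 of 34 of these genes (38.2%) and 11.8% of all.

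**Figure D4:**
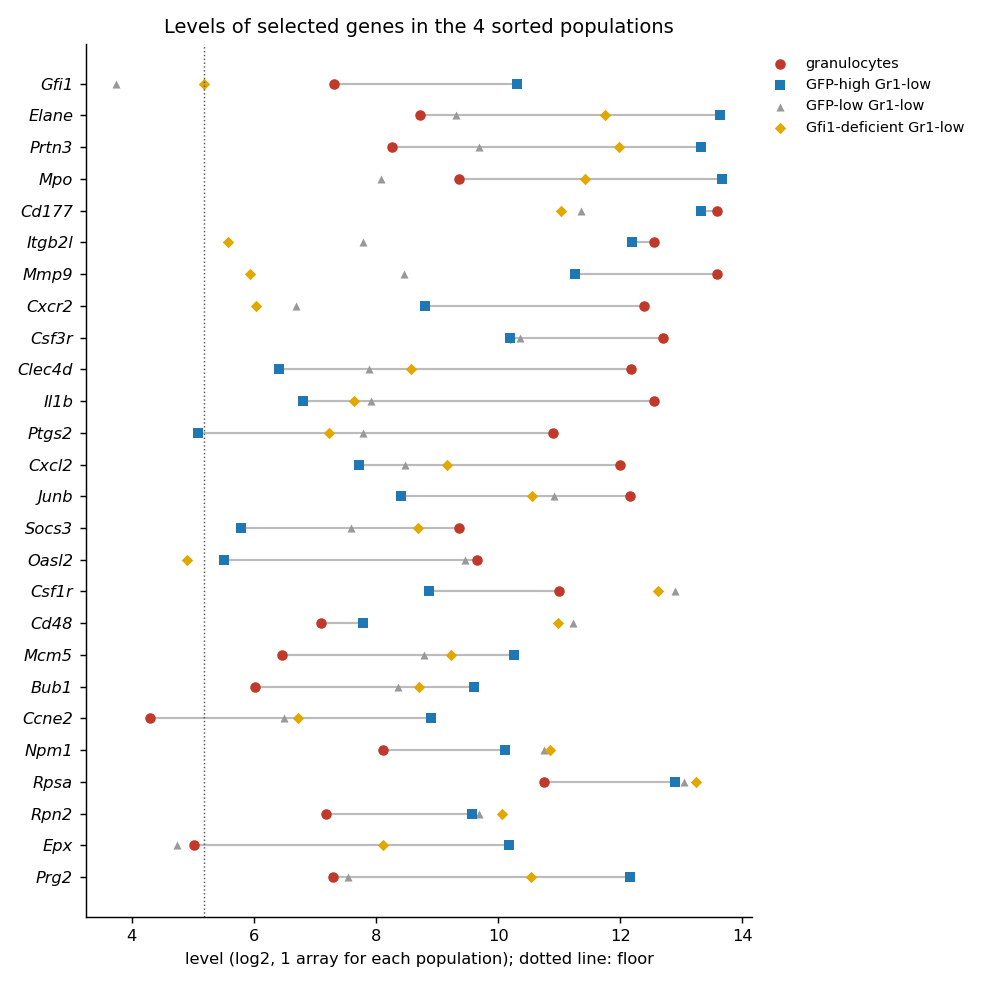
Level (horizontal axis, log2) of 26 genes on the 4 arrays, 1 array for each population, with granulocytes and GFP-high Gr1-low cells joined by a line and the floor of 5.18 dotted. Mcm5, Bub1 and Ccne2 are highest in GFP-high cells and lowest in granulocytes, Clec4d, Il1b and Cxcl2 are highest in granulocytes, and Csf1r and Cd48 are highest on the GFP-low and Gfi1-deficient arrays.

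Markers of other cell types differed between the arrays too, and their part in the results above was not tested. Eosinophil genes were lower in granulocytes for 5 of 6 measured members, and the 7 listed genes on the array summed to a linear level of 488 in granulocytes against 7852 in GFP-high, 478 in GFP-low and 2318 in Gfi1-deficient cells. Prg2, the major basic protein, read log2 7.29 in granulocytes, 12.16 in GFP-high Gr1-low, 7.53 in GFP-low Gr1-low and 10.54 in Gfi1-deficient Gr1-low cells. Epx, the eosinophil peroxidase, read log2 5.02 in granulocytes, 10.18 in GFP-high Gr1-low, 4.75 in GFP-low Gr1-low and 8.11 in Gfi1-deficient Gr1-low cells. Il5ra, the defining eosinophil receptor, was below the floor on both arrays compared, and Ccr3, another, was above it only in GFP-high cells, at 5.75. Siglecf, a receptor of the same list, was highest on the GFP-high array, at log2 7.02 in granulocytes, 8.14 in GFP-high Gr1-low, 4.92 in GFP-low Gr1-low and 5.81 in Gfi1-deficient Gr1-low cells.

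Macrophage genes were mixed, with 4 of 14 lower (28.6%) and 2 higher (14.3%), beside 16.4% and 8.93% of all measured genes. Their summed levels were 5194 in granulocytes and 5399 in GFP-high cells. Vcam1, an adhesion molecule of marrow macrophages, read log2 7.17 in granulocytes, 10.66 in GFP-high Gr1-low, 6.07 in GFP-low Gr1-low and 6.26 in Gfi1-deficient Gr1-low cells. Mrc1 and the complement genes C1qa and C1qc were 3.34-fold, 2.66-fold and 2.41-fold lower in granulocytes, and Cd68 3.5-fold higher. Stem and progenitor genes were lower for 3 of 11 (Myb, Kit and Prom1; 27.3%, beside 16.4% of all) and higher for 0. The median of the list was 0.32, with 7 members above 0 and 4 below it. Prom1, a surface protein of progenitors, read log2 9.52 in granulocytes, 11.06 in GFP-high Gr1-low, 5.08 in GFP-low Gr1-low and 4.24 in Gfi1-deficient Gr1-low cells, while Cd34 was below the floor on both arrays. Prom1, Kit and Myb were above their levels in GFP-low and Gfi1-deficient cells on both arrays compared.

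Granulocytes read higher for markers of several lineages outside the granulocytic line. Monocyte genes were 2-fold or more higher for 11 of 18 measured members, MHC class II and dendritic genes for 5 of 9, B and plasma cell genes for 5 of 13, erythroid genes for 6 of 10 and megakaryocyte and platelet genes for 3 of 9, against 8.93% of all measured genes. T and NK cell genes were that much higher for 1 of 8 (12.5%), near the share over all genes, with a median of 0.22. The summed levels, granulocytes first and GFP-high cells second, were 2961 and 939 for MHC class II and dendritic genes, 3421 and 2225 for B and plasma cells, and 2373 and 1145 for erythroid cells. For megakaryocytes and platelets they were 5542 and 1328, and for T and NK cells 1021 and 643. Cd74, the invariant chain of MHC class II, read log2 9.58 in granulocytes, 7.38 in GFP-high Gr1-low, 11.30 in GFP-low Gr1-low and 9.49 in Gfi1-deficient Gr1-low cells, Cd79a, of the B cell receptor, log2 7.47 in granulocytes, 5.74 in GFP-high Gr1-low, 6.31 in GFP-low Gr1-low and 5.36 in Gfi1-deficient Gr1-low cells, and Cd3d, of the T cell receptor complex, log2 8.48 in granulocytes, 6.23 in GFP-high Gr1-low, 5.13 in GFP-low Gr1-low and 4.98 in Gfi1-deficient Gr1-low cells. Thbs1, a thrombospondin of platelets that monocytes also make, was 6.35-fold higher and held most of the summed level of its list. Some defining genes of these lineages, monocytes aside, were below the floor on both arrays. Among them were the B cell factors Pax5 and Ebf1 and the T cell genes Cd3g, Cd2 and Cd5. So were the platelet genes Gp1bb, Gp5 and Vwf, the globin gene Hba-a1, and the dendritic genes Ciita, Zbtb46 and Xcr1. Other lineage genes were above it in granulocytes, such as Cd3e (log2 6.81), Klf1 (7.49) and Cd79a (7.47). Of 19 monocyte genes on the array, 18 were above the floor in granulocytes and 18 in GFP-high cells. Of the genes on the array, those above the floor in granulocytes were 9 of 14 for MHC class II and dendritic cells, 13 of 15 for B and plasma cells, 10 of 12 for erythroid cells, 9 of 12 for platelets and 8 of 17 for T and NK cells. In GFP-high cells the same counts were 6, 9, 9, 9 and 7.

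**Figure D5:**
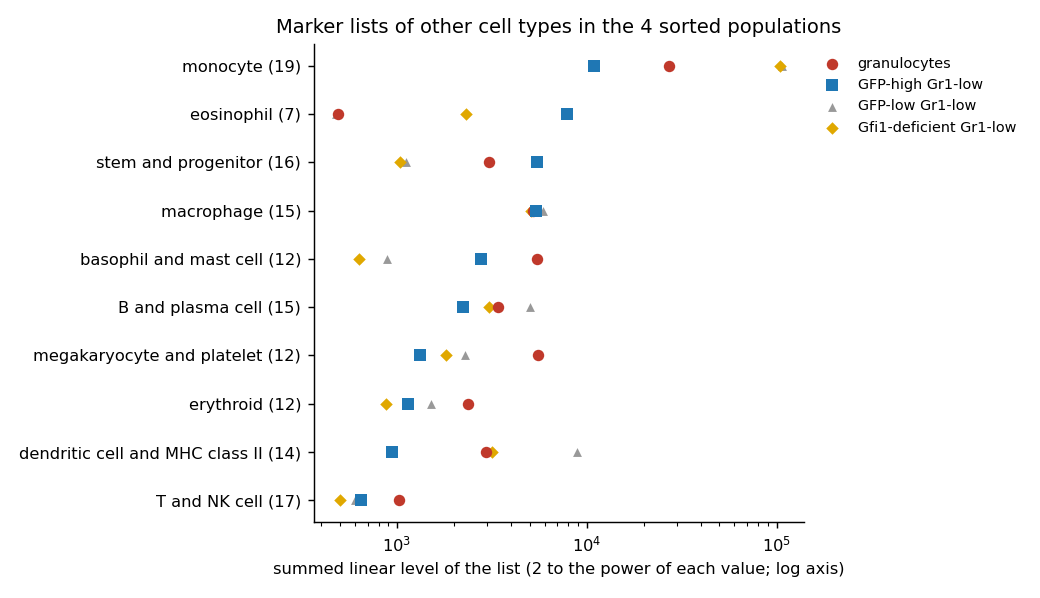
Summed linear level (horizontal axis, log scale, 2 to the power of each log2 value, summed over the list) of 10 marker lists on the 4 arrays, with the number of genes on the array in brackets. Eosinophil markers are higher in GFP-high cells (7852) than in granulocytes (488), and monocyte markers are far lower on both than on the GFP-low and Gfi1-deficient arrays.

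Basophil and mast cell genes had 1 of 8 members higher and 1 lower, 12.5% each, beside 8.93% and 16.4% of all measured genes. Hdc, the histidine decarboxylase of basophils that neutrophils also make, read log2 12.23 in granulocytes and 10.87 in GFP-high Gr1-low cells. It read 7.16 in GFP-low Gr1-low and 6.50 in Gfi1-deficient Gr1-low cells. Cd48, the surface protein in the study's title, read log2 7.10 in granulocytes and 7.78 in GFP-high Gr1-low cells, a difference of -0.68 and short of 2-fold. Genes often used as references were not level as a group, and of 13, 4 were 2-fold or more lower in granulocytes, Hprt (3.58-fold), Gusb (3.16-fold), Tfrc (2.86-fold) and Rplp0 (2.19-fold). Tfrc, the transferrin receptor, has another probe set without that difference. RNA integrity was read from control probe sets, whose 3′ level for Actb exceeded the 5′ level by 0.08 log2 units in granulocytes and by 0.16 in GFP-high cells, while for Gapdh the same difference was -0.06 on both.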

How the data were processed

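Total RNA extracted with TRIzol from sorted cells was made into biotin-labelled cRNA and hybridised to Affymetrix mouse arrays, 1 per population, per the labels' protocols. The values are the authors' deposited log2 table of 22690 probe sets (64 of them controls, left out). Base 2 is taken from how the values spread, and how background, probe signals and scale were handled is not given in the sources used here. A scale set across arrays can hide a change in total RNA per cell.

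Probe sets were named through GEO's platform annotation: 20393 have 1 gene, 691 several and 1606 none, and the last 2 kinds were left out. Symbols were updated to RefSeq (GRCm38.p6) for 20364. Each gene was read at its brightest probe set, by the mean of all 4 arrays, values under the 40th percentile were raised to it, and genes at the floor on both arrays were left out. With 1 array a side there is no p-value or standard error, and the number of arrays limits the precision. Named genes are the 15 with the largest difference each way, the 6 with the largest difference in each of 52 lists, members lying 2-fold against their list, and a fixed set of markers. The members and lists were chosen with earlier results of these data known. Motif letters were counted in RefSeq promoter windows. The subtraction of levels was checked on GFP-high values shifted by known amounts, which it returns by construction. That check did not cover the choice of probe set, the bounds at the floor, the lists or the motif search. Python 3.11.15, pandas 2.3.3, numpy 2.4.6 and matplotlib 3.10.9 were used. The 8 alternatives tried changed the floor, the choice of probe set, the scale and the ceiling, and the closing section gives their effect.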

Additional observations from a re-analysis of the deposited data

How the results depend on the processing

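All 8 alternatives were chosen with earlier results of these data known. Genes 2-fold or more higher in granulocytes numbered 624 to 846 over them and genes that much lower 980 to 1451, and 31 of 32 counts stayed within 1.5 times the reported one. The 34 lists with a median of at least 0.5 in size kept its sign under all 8, and no reported gene or list difference of 2-fold changed sign. Of 2547 gene values 181 moved by more than the scatter between probe sets, 101 of them with the floor at the 60th percentile, which leaves 5975 genes measured and shortens every bound. With that floor, 209 genes were 4-fold or more lower, and the medians were -2.19 for DNA replication, -0.88 for DNA repair, -0.74 for ribosome biogenesis and nucleolus, -0.92 for nucleotide and one-carbon synthesis, -3.29 for eosinophil and 0.84 for T and NK cell genes. A floor at the 20th percentile gave medians of 0.49 for chemokine and cytokine ligand and 0.58 for dendritic cell and MHC class II genes, and with no floor the latter was 2.02. With the mean of the probe sets of a gene, the medians were 2.15 for mature neutrophil, -1.33 for DNA repair and -1.27 for replication histone and chromatin genes. Without genes in the top 1% on both arrays, the mature neutrophil median was 2.61. Where the number of genes measured does not show it, the cause was not tested. No paired analysis was possible because each population has 1 array and the labels carry no replicate numbers. Genes near the floor have only bounds, and a difference near 0.37, the scatter between probe sets, cannot be separated from it.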

Other observations

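The share of genes past 2-fold varied with level. With the measured genes ordered by their mean level on the arrays compared and split into 4 equal groups, 6.38%, 24.5%, 20.2% and 14.3% were lower in granulocytes, from the lowest group to the highest, and 3.07%, 7.66%, 11.0% and 14% were higher. Lower genes thus outnumbered higher ones most clearly in the 2 middle groups, and among the most abundant messages the shares were nearly equal.

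Promoters of the genes with the widest gaps differed in base composition. Windows of the genes 4-fold or more higher in granulocytes had a median GC content of 56% and a median observed over expected CpG ratio of 0.491, over 169 genes, and windows of the genes 4-fold or more lower had 60.7% and 0.85, over 311 genes. All measured genes had 60.7% and 0.756. Base composition changes how often a motif's letters occur by chance, and the motif shares given above were not adjusted for it. Among windows of the genes 4-fold or more higher, AP-1 letters were found for 16% and E2F letters for 1.18%, and among those 4-fold or more lower for 4.82% and 8.04%.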
